A study of Mus musculus with 8 samples.

Results

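The BCL2 family genes described here are 10 regulators of the mitochondrial pathway of cell death: the pro-survival members Bcl2, Bcl2l1 and Mcl1, and the pro-death members Bax, Bak1, Bcl2l11, Bad, Bid, Bbc3 and Pmaip1. They were taken by name, with every array probe that carries one of these names, and make up 10 of the 27585 gene names on the array, with 19 probes on 46 spots. The RNA came from hematopoietic stem cells (HSCs, the cells that renew all blood lineages) of mouse bone marrow and was hybridised to Agilent 1-colour arrays, 1 sample per array. The genotypes were NrasG12D/G12D (n = 3, both copies of the endogenous Nras gene mutant), NrasG12D/+ (n = 3, 1 mutant copy) and Nras+/+ (n = 2, the controls), all of strain B6. G12D is an amino acid change that holds the small GTPase Nras in its active state. The labels give neither the age of the mice, the way the allele was switched on, nor whether the samples are from different animals. The p-values therefore reflect only how much these samples differ, which may be technical.

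BCL2 family proteins decide whether the outer mitochondrial membrane stays intact. Bax and Bak1 are the effectors that open it and release cytochrome c, Bcl2, Bcl2l1 (BCL-XL) and Mcl1 hold them in check, and the BH3-only proteins Bcl2l11 (BIM), Bad, Bid, Bbc3 (PUMA) and Pmaip1 (NOXA) sense stress and tip the balance towards death. Mcl1 is needed for HSC survival in mice, and Ras signalling is known to act on the family through ERK, which promotes the breakdown of BIM, and through AKT, which restrains BAD and the FOXO factors that transcribe Bcl2l11 and Bbc3. Much of this control is exerted on proteins, which these arrays do not measure.

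Probes are 60 bases long. Chromosome positions are those in the deposited files, which state no genome build and no exon annotation. The following sequences are both detected Bcl2l1 probes, which differ in direction, and the brightest probes of Bcl2, Bak1 and Bax, with 1 Bcl2l11 probe whose position covers far more genome than its own length.

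Bcl2l1 probe A_52_P510877, chr2:152520890-152520949, minus strand: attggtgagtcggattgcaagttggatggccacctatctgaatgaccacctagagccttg
Bcl2l1 probe A_51_P299454, chr2:152521435-152521494, minus strand: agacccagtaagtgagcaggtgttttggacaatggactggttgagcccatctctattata
Bcl2 probe A_51_P380013, chr1:108539940-108539999, minus strand: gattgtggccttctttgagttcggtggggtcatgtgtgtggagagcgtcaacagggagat
Bak1 probe A_52_P225207, chr17:26748876-26748935, minus strand: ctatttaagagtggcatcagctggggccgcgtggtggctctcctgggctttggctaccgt
Bax probe A_51_P254541, chr7:45334141-45334296, minus strand: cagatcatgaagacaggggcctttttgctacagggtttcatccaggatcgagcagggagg
Bcl2l11 probe A_51_P484880, chr2:127838598-127849693, plus strand: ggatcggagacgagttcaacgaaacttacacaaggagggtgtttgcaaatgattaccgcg

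The Bax position spans 156 bases and the Bcl2l11 position 11096 bases of genome for a probe of 60 bases, as a probe across an exon junction does. The GC content of these probes lay between 45% and 60%.

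Because FOXO factors are part of the known control of this family, the RefSeq promoter windows (GRCm38.p6, 250 bases before to 50 bases after a start site) were searched for the forkhead core TGTTTAC on both strands, where the reverse complement reads GTAAACA. A window was found for 9 of the 10 members, 15 windows in all. The motif stood in 1 window each of Bbc3 and Bcl2l11, and in 3.65% of all 32851 windows. The match starts 167 bases before the Bbc3 start site and 227 bases before the start site of Bcl2l11, and is in capitals below.

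Bbc3 promoter, chr7:16310011-16310310, plus strand: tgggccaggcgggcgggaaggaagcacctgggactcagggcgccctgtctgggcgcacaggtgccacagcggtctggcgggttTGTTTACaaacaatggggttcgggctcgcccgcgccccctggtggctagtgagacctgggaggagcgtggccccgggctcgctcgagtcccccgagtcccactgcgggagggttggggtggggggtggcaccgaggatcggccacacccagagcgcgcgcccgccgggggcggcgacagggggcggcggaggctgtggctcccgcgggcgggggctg
Bcl2l11 promoter, chr2:128125788-128126087, plus strand: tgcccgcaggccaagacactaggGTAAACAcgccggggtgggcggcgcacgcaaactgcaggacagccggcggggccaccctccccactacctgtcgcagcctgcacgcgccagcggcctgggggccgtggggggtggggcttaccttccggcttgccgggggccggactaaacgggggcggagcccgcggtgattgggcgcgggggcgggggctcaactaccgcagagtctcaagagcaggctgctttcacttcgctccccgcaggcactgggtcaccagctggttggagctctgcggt

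The AP-1 motif TGANTCA and the STAT motif TTCNNNGAA, which read the same on both strands, matched in none of the 15 member windows, against 7.81% and 8.3% of all windows. The E-box CACGTG matched in 1 Bax and 1 Bbc3 window and in 7.15% of all windows. These matches describe letters in a window and no binding was measured.

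Between 26% and 42.4% of the spots of an array were well above background, and the arrays differed in many genes within a genotype. By replicate this share was 30.3%, 26% and 29.9% in NrasG12D/G12D, 41%, 42.4% and 28.5% in NrasG12D/+, and 36% and 30.8% in Nras+/+. Detection of Nras and of the markers below is to be read beside these shares. NrasG12D/+ replicate 1 stood apart from the rest, with a mean correlation across genes of 0.56 with the other arrays, against 0.63 to 0.64 for the other arrays. Slide 1 carried both Nras+/+ arrays and NrasG12D/+ replicates 1 and 2, slide 2 the other 4. The tested Nras probe read 8.38, 10.9 and 11.1 in NrasG12D/G12D, 12.3, 19.6 and 28.4 in NrasG12D/+ and 28.2 and 42.7 in Nras+/+. No NrasG12D/G12D array had it well above background. A probe of this length does not tell the alleles apart, so it does not check the genotype labels. Among 15 HSC markers, Ly6a, Slamf1, Fgd5 and Mllt3 were detected on all 8 arrays, Kit on 1, and Procr, Tek, Gata2 and Gfi1 on none. All 8 tested HSC markers had a lower mean than in Nras+/+ in both mutant genotypes, with median log2 changes of -0.65 in NrasG12D/G12D and -0.71 in NrasG12D/+, where all genes stood at -0.44 and -0.26. Of 8 B cell markers, Ms4a1 and Vpreb1 were detected on all arrays and Cd79a and Ebf1 on none, with 4 or 5 detected per NrasG12D/G12D array, 6 per NrasG12D/+ array and 3 or 5 per Nras+/+ array. Of 7 monocyte markers, Csf1r was detected on all arrays and Cd68 on none, with 1 to 3, 3 to 5 and 4 detected per array in these genotypes. The 4 tested T and NK cell markers all had lower means in both mutant genotypes (medians -1.48 and -1.27), as did 4 of 5 stromal and endothelial markers (medians -1.35 and -0.98), and no marker passed the adjusted threshold. In these lists Cd3e and Col1a2 were detected on all 8 arrays, and Cd3d, Cdh5, Kdr and Lepr on none. Of 8 neutrophil markers, 1 or 2 were detected per NrasG12D/G12D array, 2 to 4 per NrasG12D/+ array and 3 per Nras+/+ array. Their summed signal ranged from 176 to 266 in NrasG12D/G12D and from 367 to 592 in Nras+/+. In NrasG12D/+ it was 13932 on replicate 1 alone, and 342 and 320 on replicates 2 and 3. Of the neutrophil markers, Cxcr2 was detected on all 8 arrays, Mmp8 on 5, Ngp on 3, and S100a9 and Ltf on 2 each. S100a8, Camp and Lcn2 were above background on no array. Of 7 erythroid markers, Hba-a1 and Slc4a1 were detected on all arrays and Klf1 on none. Per array, 2 to 4 were detected in NrasG12D/G12D, 3 to 5 in NrasG12D/+ and 3 or 4 in Nras+/+. Of 8 megakaryocyte markers, 4 or 5 were detected per array. Itga2b, Gp1bb, Vwf and Itgb3 were detected on all arrays and Pf4, Gp9 and Ppbp on none, and the summed signal ranged from 341 to 57427. The part of these cells in the values of the BCL2 family was not tested. Fewer cells of a type and less RNA per cell cannot be told apart in such bulk samples.

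Values below are scaled signals, that is, the processed intensity of a probe after each array was brought to a common 75th percentile. A log2 change is the difference of the mean log2 scaled signals. They are comparable between arrays for 1 probe and not between probes. Of the 19 probes, 4 were well above background on all 8 arrays (1 each of Bcl2, Bcl2l1, Bak1 and Bbc3) and 9 on none, counting a probe by whether most of its spots were. The GC content of these 4, in that order, was 53.3%, 45%, 60% and 55%. This left 7 members with a probe above background on at least 2 arrays, which were tested: all 3 pro-survival genes, and Bak1, Bcl2l11, Bad and Bbc3. Bax, Bid and Pmaip1 were not tested.

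**Figure D1:**
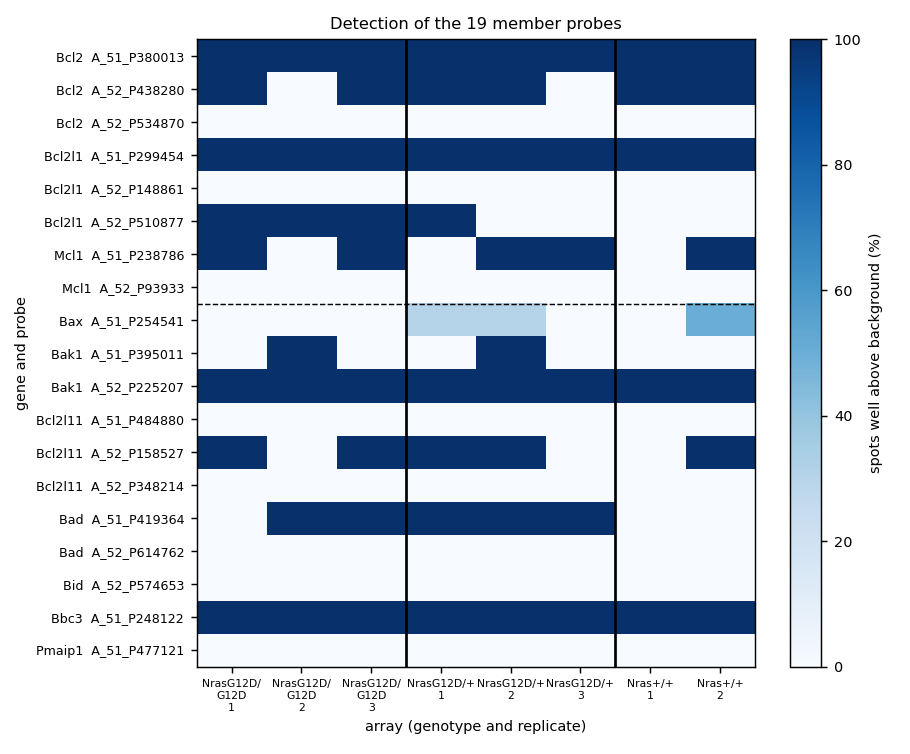
Share of the spots of each member probe that were well above background (colour scale in percent), for 19 probes (rows, pro-survival genes above the dashed line) on 8 arrays (columns, by genotype and replicate number). 4 probes are dark on every array and 9 are dark on none, of which Bax has pale cells on 3 arrays, while Bcl2l1 probe A_52_P510877 is dark on all 3 NrasG12D/G12D arrays, on 1 NrasG12D/+ array and on no Nras+/+ array.

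The largest difference between genotypes among the members was in 1 probe of Bcl2l1, the gene of BCL-XL, and the other probes of the gene did not share it. Probe A_52_P510877 read 20.6, 1611 and 248 in NrasG12D/G12D, 15.1, 5.16 and 3.38 in NrasG12D/+, and 2.17 and 4.78 in Nras+/+. All 3 NrasG12D/G12D arrays lay above all the others, but they differed among themselves, with an SD of 3.15 on the log2 scale. The probe was well above background on all 3 NrasG12D/G12D arrays, on NrasG12D/+ replicate 1 and on neither Nras+/+ array. It passed the filter mainly through the genotype where it is high, and only a bound can be given against Nras+/+. The mean was at least 18-fold higher in NrasG12D/G12D, and at least 6.36-fold higher without NrasG12D/G12D replicate 2, the brightest array, or 56.3-fold without replicate 1, the dimmest. Adjusted over every probe tested the difference did not pass (limma adjusted p = 0.711), and neither did any other probe (0 of 18327, 0%). Between NrasG12D/G12D and NrasG12D/+, where 1 of 3 arrays was above background, the log2 change was 4.98 (SE 1.43, limma adjusted p = 0.787).

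This probe is singled out after its values were seen, and the array holds many probes whose genotypes do not overlap. Of 18327 probes tested, 5.71% had all NrasG12D/G12D arrays above both Nras+/+ arrays, and 2.58% had them above all NrasG12D/+ arrays. A fitted rise at least as large was found in 0.12% of probes against Nras+/+ and in 0.109% against NrasG12D/+. For this probe, that rise is set against arrays where it was not well above background, except NrasG12D/+ replicate 1. Within slide 2, which holds the 3 NrasG12D/G12D arrays and NrasG12D/+ replicate 3, where the probe was not above background, the log2 change between these genotypes was 5.90 (SE 2.13). With normexp background correction, which adds an offset and so compresses low signals, it was 2.38 over all arrays of both genotypes. Without NrasG12D/G12D replicate 2 it was 3.48.

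The second Bcl2l1 probe, A_51_P299454, lies 485 bases upstream of the first along the minus strand and was detected on all 8 arrays. It read 12.4, 20.3 and 14.8 in NrasG12D/G12D, 16.6, 43.8 and 35.6 in NrasG12D/+, and 21.5 and 33.3 in Nras+/+. Here NrasG12D/G12D was the lowest genotype, with all 3 arrays below both Nras+/+ arrays and overlapping NrasG12D/+. The log2 change from Nras+/+ was -0.79 (SE 0.74, limma adjusted p = 0.782), and that from NrasG12D/+ was -0.94 (SE 0.66, limma adjusted p = 0.837). The third probe, A_52_P148861, lies 48494 bases downstream of the first and was printed on 10 spots. None of its spots was well above background on any array, where it read 1.37 to 4.25. The 2 detected probes of the gene thus had opposite signs in NrasG12D/G12D, and none of these changes passed the adjusted threshold.

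**Figure D2:**
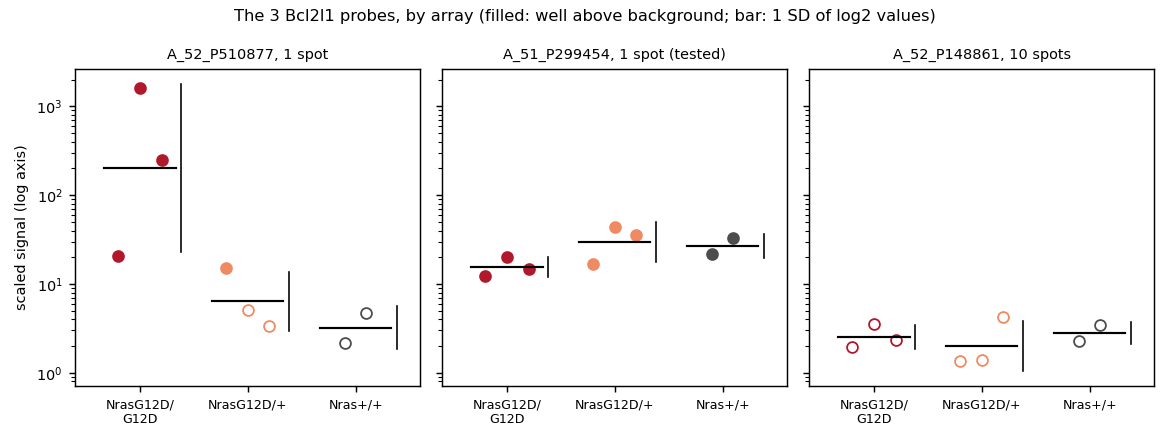
Scaled signal (log axis) of the 3 Bcl2l1 probes, with 1 point per array by genotype, filled where the probe was well above background, a line at the geometric mean and a bar of 1 SD of the log2 values. The left probe is highest in NrasG12D/G12D (20.6 to 1611, against at most 15.1 elsewhere), the middle probe is lower there than in Nras+/+, and the right probe has no filled point.

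Bcl2, the founding member of the family and an inhibitor of Bax and Bak1, varied little among the mutant arrays. Probe A_51_P380013 read 430, 353 and 343 in NrasG12D/G12D, 426, 440 and 329 in NrasG12D/+, and 429 and 1376 in Nras+/+. The 6 mutant arrays and Nras+/+ replicate 1 lay close together, and Nras+/+ replicate 2 alone was high. The log2 change was -1.04 in NrasG12D/G12D (SE 0.74, 95% interval -2.72 to 0.64, limma adjusted p = 0.746) and -0.96 in NrasG12D/+ (SE 0.74, 95% interval -2.64 to 0.72, limma adjusted p = 0.814). Without Nras+/+ replicate 2 these values were -0.20 and -0.12. The mutant genotypes differed by -0.08 (SE 0.66). A further Bcl2 probe, A_52_P438280, was detected on 6 arrays and read 45.6, 8.16 and 12.5 in NrasG12D/G12D, 9.41, 9.74 and 15.8 in NrasG12D/+, and 36.7 and 25.2 in Nras+/+. Its NrasG12D/+ arrays lay below both controls, while 1 NrasG12D/G12D array lay above them. The third Bcl2 probe, on 10 spots and 172457 bases downstream of it, was not detected on any array.

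Mcl1, a short-lived inhibitor of Bak1 and BIM, varied more between arrays than between genotypes. It read 28.8, 7.88 and 11.7 in NrasG12D/G12D, 5.44, 32 and 16.8 in NrasG12D/+, and 7.76 and 17.4 in Nras+/+, and the lowest value in each genotype was not well above background. The log2 changes were 0.25 (SE 0.97) and 0.30 (SE 0.97) from Nras+/+ in NrasG12D/G12D and NrasG12D/+ HSCs, with 95% intervals from -1.96 to 2.46 and from -1.91 to 2.51. The 3 genotypes have no order beyond their spread.

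Of the effectors, Bak1 was measured on all arrays. Probe A_52_P225207 read 214, 421 and 192 in NrasG12D/G12D, 1844, 124 and 487 in NrasG12D/+, and 118 and 137 in Nras+/+. The controls were the lowest genotype and close to each other. All 3 NrasG12D/G12D arrays lay above them, while NrasG12D/+ replicate 2 lay between them. The log2 change from Nras+/+ was 1.03 in NrasG12D/G12D (SE 1.09, limma adjusted p = 0.802) and 1.92 in NrasG12D/+ (SE 1.09, limma adjusted p = 0.814). Without NrasG12D/+ replicate 1, the array at 1844, the change in NrasG12D/+ was 0.95, and without replicate 2, the array at 124, it was 2.90 (SE 0.95, limma adjusted p = 0.911). A second Bak1 probe, 1205 bases downstream, was detected only on NrasG12D/G12D replicate 2, at 23.1, and on NrasG12D/+ replicate 2, at 7.05.

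Bax, the other effector, was near background. Its probe, printed on 10 spots, read 4.02, 7.60 and 3.73 in NrasG12D/G12D, 4.76, 4.66 and 4.90 in NrasG12D/+, and 6.58 and 16.5 in Nras+/+. Of these 10 spots, 5 were well above background on Nras+/+ replicate 2, 3 on each of NrasG12D/+ replicates 1 and 2, and none on the other 5 arrays. The probe gives no fold for Bax.

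Among the BH3-only genes of the 10 members, Bbc3 was the only one detected on all arrays. PUMA, its product, binds all pro-survival members. The Bbc3 probe read 166, 3487 and 1594 in NrasG12D/G12D, 5801, 567 and 232 in NrasG12D/+, and 210 and 1298 in Nras+/+. Each genotype held both low and high arrays, and all 3 overlapped. The log2 changes were 0.90 in NrasG12D/G12D and 0.81 in NrasG12D/+ (SE 1.67 each, limma adjusted p = 0.888 and 0.91). With the slide as a block they were 3.86 (SE 2.69) and 1.80 (SE 1.76), and the difference between the mutant genotypes was 2.07 (SE 2.03), against 0.09 without the block. None of these passed either.

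Bad, which frees the effectors by binding Bcl2 and BCL-XL, was detected on 2 of 3 NrasG12D/G12D arrays, on all 3 NrasG12D/+ arrays and on neither Nras+/+ array. It read 6.03, 338 and 32.4 in NrasG12D/G12D, 67.9, 10.9 and 23.5 in NrasG12D/+, and 11 and 12.4 in Nras+/+. The mean was at least 3.32-fold higher in NrasG12D/G12D and at least 2.13-fold higher in NrasG12D/+, but in each mutant genotype 1 array lay below both controls. The probe passed the filter through mutant arrays alone. Neither difference passed (limma adjusted p = 0.768 and 0.862). Without NrasG12D/G12D replicate 2, the array at 338, the bound in that genotype was 1.15-fold, and without replicate 1, the array at 6.03, it was 8.61-fold. In NrasG12D/+ it was 1.32-fold without replicate 1 and 3.29-fold without replicate 2. A second Bad probe, A_52_P614762, is placed on the minus strand, opposite to the first. It read 1.24 to 3.93 and was well above background on no array, so it neither shows nor contradicts these differences.

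Bcl2l11, the gene of BIM, had 1 of its 3 probes detected. It read 120, 6.34 and 32 in NrasG12D/G12D, 7.94, 25.9 and 12.9 in NrasG12D/+, and 8.41 and 135 in Nras+/+. High and low arrays occurred in both NrasG12D/G12D and Nras+/+. The log2 change from Nras+/+ was -0.22 (SE 1.46) in NrasG12D/G12D and -1.28 (SE 1.46) in NrasG12D/+, signs that turned to 1.79 and 0.72 without Nras+/+ replicate 2. Bid, which is cleaved by caspase 8 to link death receptors to mitochondria, read 1.26 to 4.41, and Pmaip1, whose product NOXA targets Mcl1, read 1.25 to 3.69. Neither was well above background on any array.

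**Figure D3:**
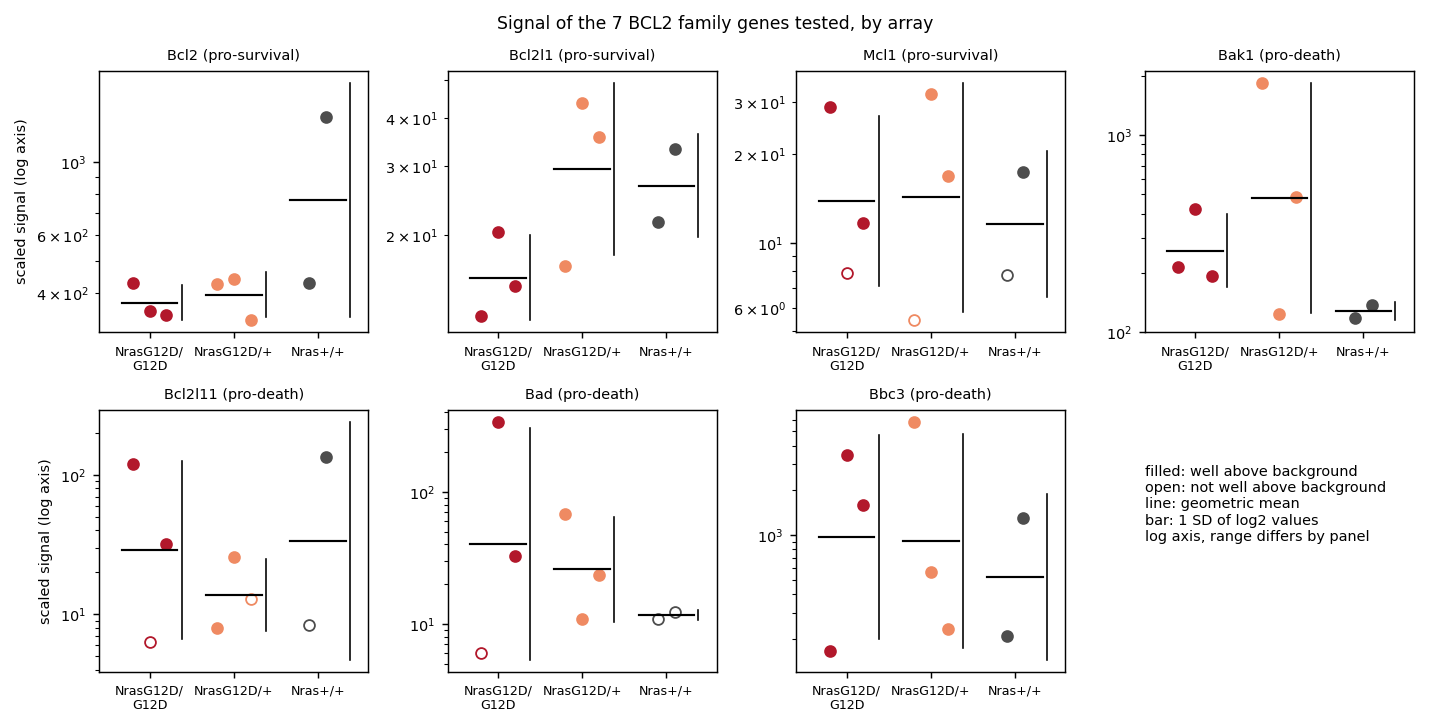
Scaled signal (log axis, a different range per panel) of the tested probe of 7 members, with 1 point per array, filled where well above background, a line at the geometric mean and a bar of 1 SD of the log2 values. Bcl2 is high on 1 Nras+/+ array (1376), Bak1 is lowest in Nras+/+ (118 and 137), and Bbc3 spans 166 to 5801 over all arrays and 210 to 1298 in Nras+/+.

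No member passed in any comparison, and no other gene did. In limma with Benjamini-Hochberg adjustment, 0 of 15033 genes (0%) had an adjusted p under 0.05 in each of the 3 comparisons. An unadjusted p under 0.05 was reached by 979 genes (6.51%) in NrasG12D/G12D against Nras+/+, by 715 (4.76%) in NrasG12D/+ against Nras+/+ and by 895 (5.95%) between the mutant genotypes, and by none of the 7 tested members at their tested probes. In NrasG12D/G12D, 2 of the 7 did not overlap Nras+/+, Bak1 (higher) and Bcl2l1 (lower at the tested probe), where 27.8% of all genes did not overlap. In NrasG12D/+ against Nras+/+ none of the 7 was without overlap (24.8% of all genes), nor between the mutant genotypes (11.2%). These 2 mutant comparisons share the Nras+/+ arrays.

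Set by role, the 3 pro-survival genes had log2 changes of -1.04, -0.79 and 0.25 in NrasG12D/G12D against Nras+/+, a median of -0.79. Bad, which passed the filter through mutant arrays alone, is left out of these counts against Nras+/+, and the other tested pro-death genes, Bcl2l11, Bbc3 and Bak1, had -0.22, 0.90 and 1.03. The median of all genes was -0.44, and 35.5% of them had a higher mean than in Nras+/+, as 1 of the 3 pro-survival genes and 2 of these 3 pro-death genes did. In NrasG12D/+ 2 of the 3 pro-survival genes had a higher mean, with changes from -0.96 to 0.30, and so did 2 of these 3 pro-death genes, with changes from -1.28 to 1.92, where all genes had a median of -0.26 and 41.9% had a higher mean. Between the mutant genotypes 42.2% of all genes had a higher mean in NrasG12D/G12D, as did 0 of the 3 pro-survival and 3 of the 4 pro-death genes. Every 95% interval of a tested probe included 0.

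**Figure D4:**
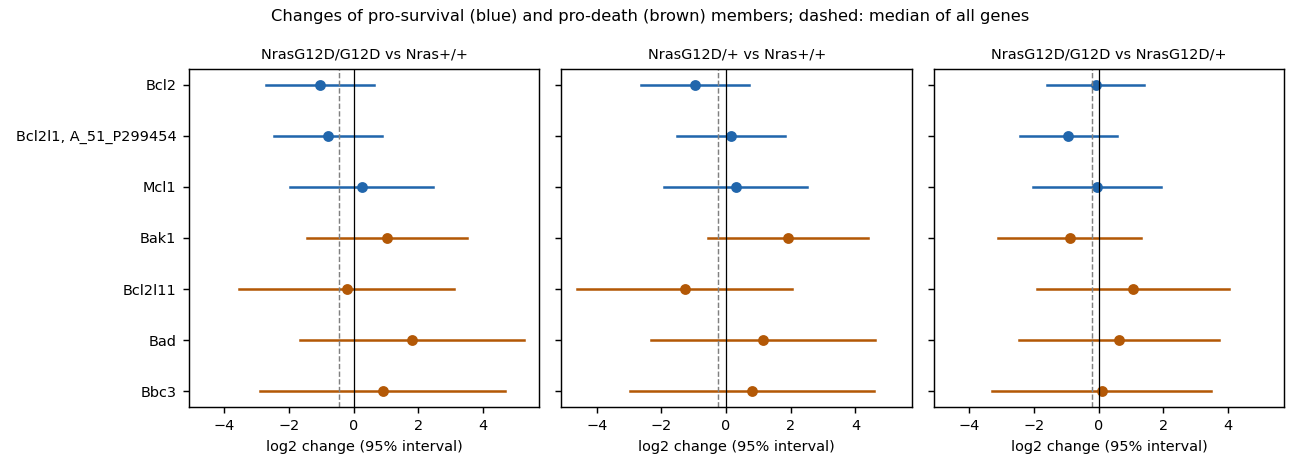
Log2 changes (points) with 95% intervals (lines) of the 7 tested members in 3 comparisons, the first genotype named minus the second. Pro-survival genes are blue, pro-death genes brown, and a dashed line marks the median of all genes. All intervals shown include 0, with Bcl2l1 at probe A_51_P299454. The values of Bad against Nras+/+ are fitted ones, since no Nras+/+ array had it above background.

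The balance of the family was taken per array as the mean of the 3 pro-survival genes minus the mean of the 4 tested pro-death genes, each gene centred on its mean over the 8 arrays, so that an offset of a whole array cancels. It was 0.62, -1.59 and -0.74 in NrasG12D/G12D, -1.99, 1.39 and 0.64 in NrasG12D/+, and 1.13 and 0.53 in Nras+/+. The means were -0.57 ± 1.12 (SD, n = 3) in NrasG12D/G12D, 0.01 ± 1.77 (SD, n = 3) in NrasG12D/+ and 0.83 ± 0.42 (SD, n = 2) in Nras+/+. The difference from Nras+/+ was -1.40 in NrasG12D/G12D and -0.82 in NrasG12D/+, beside a pooled SD between arrays of 1.34, and the genotypes overlapped. The sign in NrasG12D/G12D depended on which Bcl2l1 probe stood for the gene: with A_52_P510877 in its place the difference was 0.85. Without NrasG12D/+ replicate 1 the difference in NrasG12D/+ was 0.18. With the slide as a block the differences were -2.35 and -1.14. Without Bad among the pro-death genes, a choice made after seeing the data, they were -1.09 and -0.65. With the 4 members detected on all arrays they were -1.88 and -1.77, and with all 10 members and no filter -0.78 and -0.15.

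**Figure D5:**
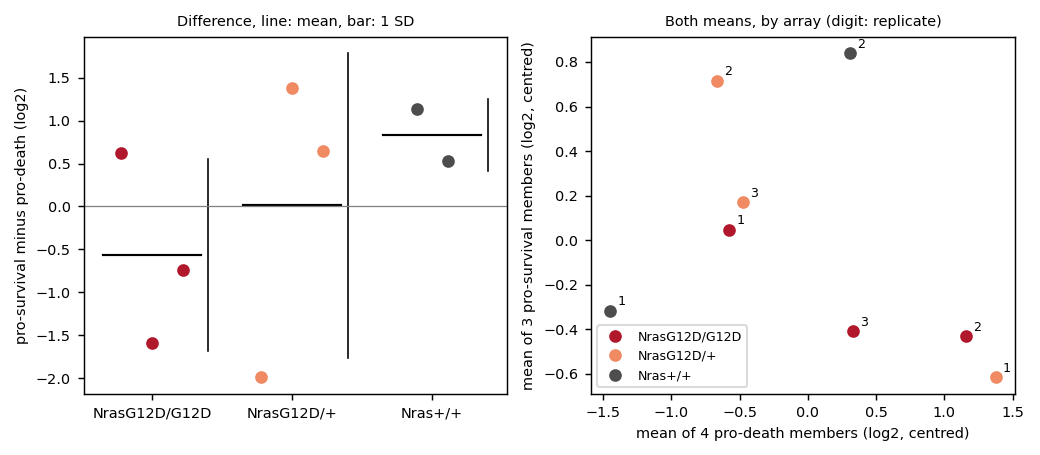
Left, mean of the 3 pro-survival minus mean of the 4 tested pro-death genes per array (log2, centred), with a line at the mean of each genotype and a bar of 1 SD. Right, both means plotted against each other with the replicate number beside each point: NrasG12D/+ replicate 1 and NrasG12D/G12D replicate 2 have the highest pro-death means (1.38 and 1.16).

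No pair of members passed the adjusted test of its correlation across arrays, and the highest correlations are given as a description. Bad and Bbc3 were both high on NrasG12D/G12D replicates 2 and 3 and on NrasG12D/+ replicate 1. Over the 8 arrays their correlation was r = 0.77 (exact two-sided permutation p = 0.0189) and rho = 0.86 (exact permutation p = 0.0107), the highest of 21 pairs, and it did not pass after adjustment over these pairs (adjusted exact permutation p = 0.293 and 0.225). Without the 2 arrays farthest from the median of Bad it was r = 0.53. Mcl1 and Bcl2l11, an inhibitor and the BH3-only protein it binds, were both high on NrasG12D/G12D replicate 1 and both low on NrasG12D/G12D replicate 2, NrasG12D/+ replicate 1 and Nras+/+ replicate 1. On these low arrays Mcl1 was not well above background, nor was Bcl2l11 on NrasG12D/G12D replicate 2 and Nras+/+ replicate 1. The correlation of Mcl1 with Bcl2l11 was r = 0.71 (exact two-sided permutation p = 0.0533, adjusted 0.293) and rho = 0.71 (exact permutation p = 0.0576, adjusted 0.453), and r = 0.82 without the 2 farthest arrays. Mcl1 ran opposite to Bad, with r = -0.67 (exact two-sided permutation p = 0.0647, adjusted 0.293) and rho = -0.69 (exact permutation p = 0.0694, adjusted 0.453). Bad was not well above background on NrasG12D/G12D replicate 1 and both Nras+/+ arrays, so all these correlations include signals near background. Each slide holds 4 arrays, too few for a test; the values within slides 1 and 2 were 0.87 and 0.88 for Bad with Bbc3, 0.65 and 0.84 for Mcl1 with Bcl2l11, and -0.68 and -0.95 for Mcl1 with Bad. Bbc3 and Bcl2l11, whose promoters are printed above, had r = -0.31.

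The rest of the pathway was covered by lists chosen by function. Of 14 other family members, 12 were on the array. The BH3-only gene Bmf, the relatives Bcl2l13 and Bcl2l14 and the mitophagy receptors Bnip3 and Bnip3l were detected on all 8 arrays, and the pro-survival genes Bcl2l2 and Bcl2l10, the A1 relative Bcl2a1c and the BH3-only gene Hrk on none. In each of the 3 comparisons 3 of the 8 tested had a higher and 5 a lower mean, with none past the adjusted threshold in either direction. Their median log2 change was -0.54 in NrasG12D/G12D against Nras+/+, -0.13 in NrasG12D/+ against Nras+/+ and -0.37 between the mutant genotypes. Of all genes, 35.5%, 41.9% and 42.2% had a higher mean in these comparisons. An unadjusted p under 0.05 was reached by 1 of the 8 between the mutant genotypes, where 5.95% of all genes reached it. This was Bik, a BH3-only protein of the endoplasmic reticulum. It read 4.49, 3.71 and 4.90 in NrasG12D/G12D, none well above background, and 9.47, 18.1 and 9.27 in NrasG12D/+, the first 2 above background. The mean was at least 1.11-fold lower in NrasG12D/G12D (limma adjusted p = 0.802), and without NrasG12D/+ replicate 2 no fold could be given. This bound takes in NrasG12D/+ replicate 3, which was not well above background. Without that array it was 1.24-fold.

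Downstream of the mitochondria, 11 of 15 genes of caspase activation were tested and none passed in either direction. In NrasG12D/G12D against Nras+/+ 6 had a higher and 5 a lower mean, in NrasG12D/+ against Nras+/+ likewise 6 and 5, and between the mutant genotypes 4 and 7. Of all genes, 35.5%, 41.9% and 42.2% had a higher mean in these comparisons. Cytochrome c (Cycs), the adaptor Fadd, the protease Htra2 and the channel Vdac1 were detected on all 8 arrays, and the initiator caspases Casp8 and Casp9 on none. Only the executioner Casp6 of the 11 reached an unadjusted p under 0.05, between the mutant genotypes alone, where 5.95% of all genes did. It read 1.70, 3.06 and 2.82 in NrasG12D/G12D, none well above background. In NrasG12D/+ it read 6.95, 9.89 and 7.37, the first 2 above background (limma adjusted p = 0.802). It passed the filter through NrasG12D/+ alone, and its signals there were too low to give a fold. Of 10 genes that inhibit caspases or regulate the turnover of Mcl1 and BIM, 6 were tested and none passed. In each mutant genotype 1 had a higher and 5 a lower mean than in Nras+/+, with medians of -1.14 in NrasG12D/G12D and -0.66 in NrasG12D/+, where all genes stood at -0.44 and -0.26. A higher mean was found in 35.5% and 41.9% of all genes there. Xiap, a direct inhibitor of caspases, read 9.29, 10.2 and 3.4 in NrasG12D/G12D and 19.3 and 28.9 in Nras+/+, and was above background on 1 NrasG12D/G12D array, at 9.29, and on both Nras+/+ arrays. The groups did not overlap, as for 27.8% of all genes, and Xiap was the 1 gene of these 6 at an unadjusted p under 0.05, as 6.51% of all genes were. The log2 change was -1.79 (SE 0.76, limma adjusted p = 0.725), and -2.26 with the slide as a block.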

How the data were processed

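Each of the 8 arrays was deposited as scanner output of Agilent Feature Extraction 10.5.1.1, per the file headers. The processed signal is an intensity on a linear scale, background-subtracted and detrended by the authors' software per the file headers and not scaled between arrays. The deposited mean spot signal and local background intensities, used for normexp, carry no such correction. Flags for outlier spots and spots well above background are scores of 0 or 1 per the file headers. The deposited value table holds a ratio, the processed signal over its array's median (largest relative deviation 1.7e-06). The labels name a Cy3 label and a Qiagen extraction.

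Outlier spots were left out, log2 signals averaged per probe, and each array set to its 75th percentile over the 6576 probes detected on all 8 arrays. A probe counts as detected, or well above background, where most of its spots carry that flag. Of several probes of a gene above background on at least 2 arrays, that of the highest mean log2 signal was tested. The design said mean signal without naming the scale; the linear mean selects another Bcl2l1 probe, and both are reported. The 15033 genes were tested with limma 3.58.1 in R 4.3.3 (lmFit and eBayes, two-sided, 1 spread for 3 genotypes, Benjamini-Hochberg at 0.05), and the fit was tested on simulated data. A fold written "at least" sets the brighter mean against the lowest detected signal of the dim arrays, or the dim probe's own if higher. An array of the brighter genotype that was not well above background enters at its own reading, and the bound is then approximate. Precision is limited by how few arrays there are: the median SE of a log2 change was 0.97, 0.96 and 0.87 (NrasG12D/G12D and NrasG12D/+ against Nras+/+, and between them).

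Slide, replicate number, background correction, scaling, filter, probe choice and single arrays were varied. Replicate numbers did not pair the arrays: deviations of same-numbered arrays from their genotype means correlated at -0.09 to 0.08. The 10 members and the lists were chosen with earlier results of these data known. The rule for names took all members with every probe, up to 4 genes per pathway list at an unadjusted p under 0.05, the 2 genes most like each member detected on all arrays, and Nras; other genes are named only for whether they were detected.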

Additional observations from a re-analysis of the deposited data

How the results depend on the processing

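None of the 7 tested members passed the adjusted threshold under any alternative run. The count of all genes past it, 0 in each comparison, moved to 1 in NrasG12D/+ against Nras+/+ with quantile normalization, scaling over all probes, the value table or no filter. In NrasG12D/G12D against Nras+/+ it moved to 1 with quantile normalization, no filter, the slide as a block or only these 2 genotypes. Between the mutant genotypes it was 4 with the slide as a block. Leaving out 1 array gave 0 to 10, 0 to 9 and 0 to 2 genes in these comparisons, with the 10 and the 9 reached without Nras+/+ replicate 2. The replicate block left all 3 counts at 0 and turned no sign, with a balance of -1.52 in NrasG12D/G12D and -0.93 in NrasG12D/+. The balance of pro-survival and pro-death genes ranged, without 1 array, from -2.00 to -0.89 in NrasG12D/G12D against Nras+/+, from -1.51 to 0.18 in NrasG12D/+ against Nras+/+ and from -1.58 to 0.11 between the mutant genotypes. Between the mutant genotypes it was -0.58, against -0.11 with the 4 members detected on all arrays, -0.13 with normexp and -1.21 with the slide as a block, and against Nras+/+ it was -0.95 in NrasG12D/G12D with normexp. With the Bcl2l1 probe of the higher linear mean, an alternative added after seeing the data, it was 0.85 and 1.39 in the 2 comparisons of NrasG12D/G12D, and Bcl2l1 turned to 5.97 and 4.98.

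Signs of members turned as follows. In NrasG12D/+ against Nras+/+, normexp gave -0.26 for Bcl2l1, -0.29 for its other detected probe, -0.25 for Mcl1 and -0.13 for Bad. Leaving out 1 array gave -0.17 to 0.56 for Bcl2l1, -0.28 to 1.0 for Mcl1, -0.53 to 2.12 for Bbc3 and -3.29 to 0.72 for Bcl2l11. In NrasG12D/G12D against Nras+/+, Mcl1 was -0.10 with normexp and -0.10 with the slide as a block, and Bcl2l11 was 0.41 in the value table, where scaling over all probes gave 0.27. Leaving out 1 array gave -0.33 to 0.84 for Mcl1, -0.41 to 2.21 for Bbc3 and -2.22 to 1.79 for Bcl2l11. Between the mutant genotypes, Bcl2 was 0.11 with quantile normalization, 0.24 with scaling over all probes, 0.37 in the value table and 0.18 with the slide as a block, and Mcl1 was 0.15 with normexp, 0.23 with quantile normalization, 0.40 in the value table, where scaling over all probes gave 0.28. Leaving out 1 array gave -1.87 to 0.076 for Bak1, -0.74 to 0.53 for Mcl1, -0.90 to 1.42 for Bbc3 and -0.89 to 2.01 for Bad. Scaling shifts all genes of an array alike: over all genes the median log2 change with the value table was 0.19 in NrasG12D/G12D and -0.074 in NrasG12D/+ against Nras+/+, and 0.25 between them, against -0.44, -0.26 and -0.20 in the reported scaling. The cause of the other turns was not tested. The log2 change of Bcl2l1 probe A_52_P510877 in NrasG12D/G12D kept its sign against Nras+/+ in every alternative run, between 2.09 and 7.62, all fitted against arrays where the probe was not above background. No slide holds both NrasG12D/G12D and Nras+/+, so their blocked values rest on the NrasG12D/+ arrays, and most members had signals near background on some arrays.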

Other observations

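For the 4 members detected on all arrays, the 2 genes most like each over the 8 arrays, among 5637 genes detected on all of them, are given as a description. Bcl2 was followed by 4930404N11Rik (r = 0.98) and Smarcd2 (r = 0.97), with Spearman's rho of 0.52 for both. Bcl2l1, at its tested probe, was followed by Kl (r = 0.97, rho = 0.98) and Med10 (r = 0.94, rho = 0.95). Bak1 was followed by Gdap1l1 (r = 0.97, rho = 0.79) and Slc39a5 (r = 0.95, rho = 0.95), and Bbc3 by Gse1 (r = 0.96, rho = 0.95) and Cnpy3 (r = 0.95, rho = 0.95). A correlation above 0.8 was reached by 0.621% of these genes for Bbc3, 1.42% for Bcl2, 1.77% for Bcl2l1 and 2.24% for Bak1.

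The probes far downstream in Bcl2 and Bcl2l1, each on 10 spots and at a GC content of 35% and 31.7%, were undetected throughout, although an upstream probe of the same gene was on all 8. In Mcl1, on the plus strand, the order was the other way: the detected probe lies 1252 bases downstream of the one detected on no array.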
